A study of Mus musculus with 19 samples.

Results

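Potassium channel genes were examined in sciatic nerve of mice of the inbred strain DBA/2J. They were taken as the genes whose single symbol in the platform annotation begins with Kcn. The annotation gave 83 such genes on 166 probe sets, and the probe set with the highest mean over all arrays stood for each gene. The 52 genes whose mean log2 intensity over all arrays was above 6 are described here, out of 18193 genes with a symbol. The other 31 genes lay at or below 6. Nearest to that limit, Kcnmb2 (mean 6.05) and Kcnn3 (6.13) were kept, and Kcng2 (5.86) and Kcnv1 (5.79) were not. The symbol prefix is wider than the label of channel genes. It holds Kcnq1ot1, which is a noncoding RNA, and 11 of the 52 genes encode accessory subunits that form no pore.

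RNA of 19 nerves was measured on Affymetrix arrays, 1 array per mouse, with 4 arrays of control mice given vehicle (CV702 to CV705) and 5 of each other group. Diabetic mice given vehicle (DV706 to DV710) had received streptozotocin, written STZ in the labels, which destroys insulin-producing cells. Control mice given rosiglitazone (CR711 to CR715), which activates the nuclear receptor PPAR gamma, had no streptozotocin, and diabetic mice given rosiglitazone (DR716 to DR720) had both. The design text names 5 mice per group and 1 control array excluded by the authors. Age, sex, doses and duration are not given in the sources used here.

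The labelled tissue held nerve transcripts on every array. Mbp, a major myelin protein, lay between 13.83 and 14.44 on the log2 scale. The arrays differed in other tissue content. Isl1, a transcription factor of sensory neurons whose cell bodies lie in ganglia outside the nerve trunk, was below 8 on 5 arrays and between 9.47 and 11.35 on the other 14. The low arrays were DV706 (5.21), DV707 (6.04), DV709 (3.97), CR715 (6.41) and DR716 (3.83), so that 3 of 5 diabetic vehicle arrays and 0 of 4 control vehicle arrays were low. The other sensory neuron markers on the list were read without Isl1, since it divided the arrays. Of the 9 tested, 8 were higher on all 14 arrays, against 4.39% of all genes tested. Among the 8, Scn10a, Scn9a, Calcb and P2rx3 had means of 4.77, 3.91, 4.97 and 4.82 on the low arrays. These lie below the log2 of 5.54 that a gene's mean had to pass to be tested. Those genes were tested only through the arrays where they were high, so the count depends in part on that limit. The mean level of the 9 markers, centred on each gene's mean, was -3.75 to -3.09 on the 5 arrays and -0.10 to 2.23 on the 14. The Gapdh control probe sets at the 3' and 5' ends of the transcript, which lie further apart in degraded RNA, differed by 3.71 on DV706, 4.38 on DV707, 1.75 on DR716 and 1.0 to 1.37 on the rest.

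Potassium channels let potassium leave the cell and pull the membrane potential back towards rest. In peripheral nerve the Kv1 channels lie beside the node of Ranvier under the myelin, where they limit repeated firing, while Kv7 channels hold the M current near rest. Two-pore channels carry the resting leak, inward rectifiers set the resting potential and clear potassium in glia and vessels, and calcium-activated channels tie the membrane potential to calcium inside the cell. Kv beta subunits, Kv channel-interacting proteins and KCNE subunits bind the pore-forming proteins and change their gating or their transport to the membrane.

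The arrays with log2 Isl1 above 8 and those below were compared for each Kcn gene. The arrays were divided by a measured transcript and not by a label, so the values are given as a description, with no test. Of the 52 genes, 15 (28.8%) were higher on all 14 arrays above than on any of the 5 below, against 4.39% of the 13460 genes tested. All 15 differed by 1 or more on the log2 scale, against 3.87% of the genes tested. Of these 15 genes, 9 had a mean at or below 6 on the 5 low arrays, so that they were kept only through the arrays where they were high. The count therefore depends in part on how the genes were kept. 4 of 52 (7.69%) were lower on all 14 arrays above, against 1.56% of the genes tested, and 2 of them by 1 or more, against 0.305%. Of these 4, 1 (Kcnn3) had a mean at or below 6 on the 14 arrays above, at 5.93. It was kept only through the 5 low arrays, where it was high, so this count depends in part on the rule as well. The difference was above 0 for 36 of the 52 genes, with a median of 0.57 beside -0.05 over all genes tested. In whole tissue, fewer cells of a type and less RNA per cell cannot be told apart.

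**Figure D1:**
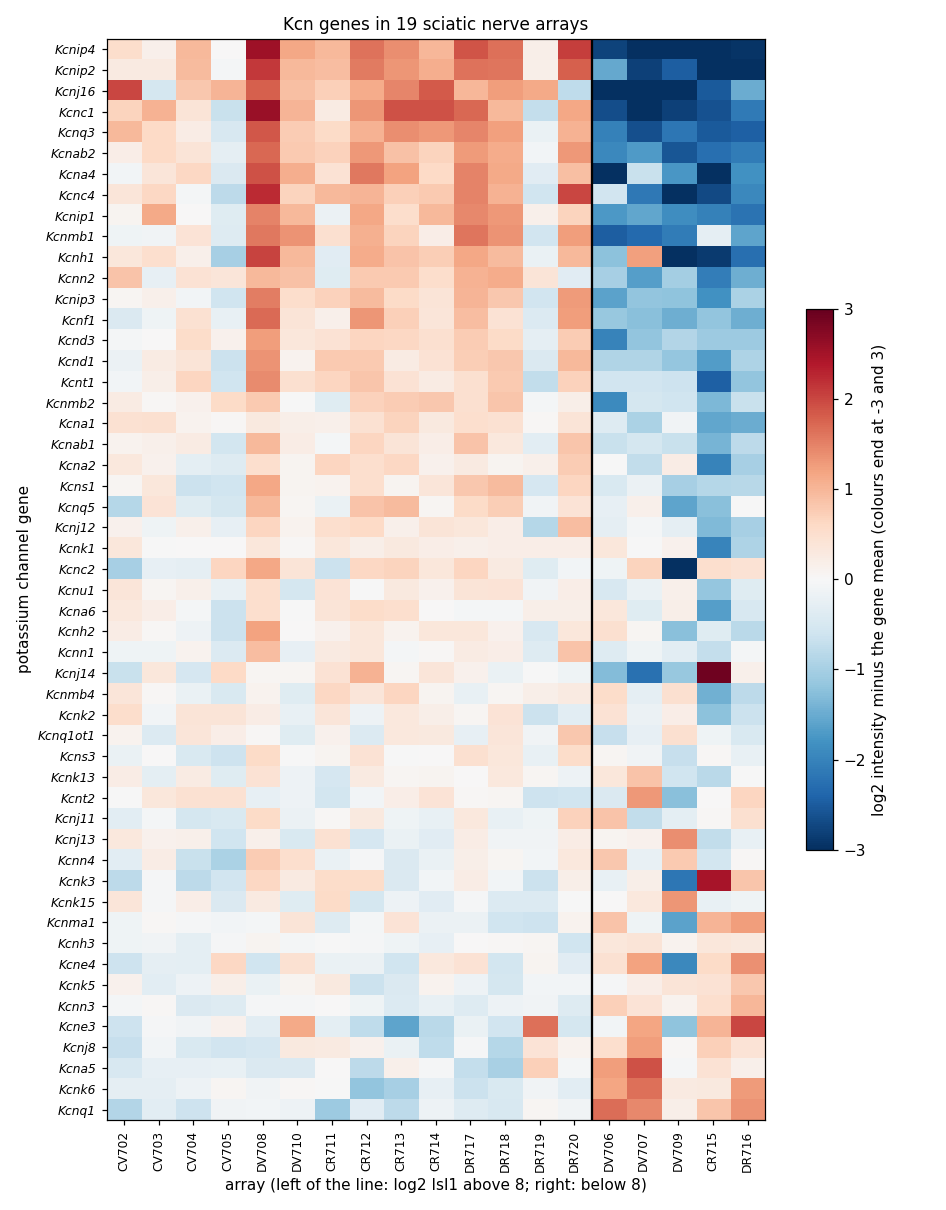
Log2 intensity of the 52 Kcn genes (rows, ordered by the difference between arrays above and below log2 Isl1 of 8) on 19 arrays (columns), each minus the gene's mean, with colours ending at -3 and 3. In the upper rows most cells are red on the 14 arrays left of the line and blue on the 5 right of it, with exceptions such as Kcnh1 on DV707 (8.33, mean 7.10), and the lowest row, Kcnq1, is red on all 5 arrays at the right.

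The Kv4 channels and their cytoplasmic partners were all higher on the arrays above, as far as they were kept. All 4 Kv channel-interacting proteins, calcium-binding proteins that bring Kv4 channels to the membrane, were higher on all 14 arrays above. Kcnip4 was at 5.41, 5.22 and 5.05 on DV706, DV707 and DV709, 3.89 on CR715 and 5.26 on DR716. On the 14 arrays above its lowest, median and highest values were 8.21, 9.27 and 10.74. The ranges did not come near each other, and the means differed by 4.38, the largest difference among the Kcn genes on this scale. Kcnip2 was at 7.18, 5.91, 6.23, 4.25 and 5.30 on the same 5 arrays and at 8.65, 9.73 and 10.82 (lowest, median and highest) on the others. Its difference was 3.97, and 2 of its 3 probe sets agreed in direction. Kcnip1 differed by 2.55, with 2 of 4 probe sets agreeing, and Kcnip3 by 1.84, with both probe sets agreeing.

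Of the pore-forming Kv4 genes, which carry the fast A-type current, 2 of 3 were kept and both were higher on all arrays above. Kcnd3 (Kv4.3) was at 8.94, 9.77, 10.07, 9.85 and 9.86 on DV706, DV707, DV709, CR715 and DR716, and at 10.68, 11.47 and 12.20 (lowest, median and highest) on the 14 others. It differed by 1.70, with 3 of 4 probe sets agreeing, and Kcnd1 (Kv4.1) by 1.52, with 3 of 3. The third, Kcnd2, had a mean of 4.78 and was not kept. It differed by 1.02 with overlap, with 3 of 4 probe sets agreeing. Dpp6 and Dpp10, membrane proteins that join the same Kv4 complexes, came from the separate list of channel partners. They differed by 4.50 and 4.12, each with no overlap.

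In the Kv1 family of voltage-dependent channels, 2 of 5 genes were higher on all 14 arrays above. Kcna4 (Kv1.4) differed by 2.83, and was at 5.16, 7.46, 6.39, 4.93 and 6.32 on the 5 low arrays, in the order used above, and at 7.69 to 10.05 on the rest. Kcna1 (Kv1.1) was at 10.90, 10.35, 11.18, 9.74 and 9.80 on the low arrays and at 11.32, 11.63 and 11.97 (lowest, median and highest) on the rest. Its 14 values above spanned little, and the difference of means was 1.22, with 3 of 4 probe sets agreeing. Kcna2 (Kv1.2), which assembles with Kv1.1 along myelinated axons, was at 10.57, 9.85, 10.80, 8.59 and 9.58 on the low arrays and at 10.20 to 11.34 on the others. The Kcna2 ranges overlapped, since DV706 and DV709 were within the range of the 14, and CR715 was lowest. Kcna6 (Kv1.6) differed by 0.54 with overlap and was also lowest on CR715, at 8.40. Of the Kv beta subunits that bind Kv1 channels, Kcnab2 differed by 2.87 with no overlap and Kcnab1 by 1.10 with overlap.

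Kcna5 (Kv1.5), a channel of vascular smooth muscle and of Schwann cells, lay the other way. It was at 7.87 on DV706 and 8.54 on DV707, 6.58 on DV709, 7.05 on CR715 and 6.78 on DR716, and at 5.66, 6.39 and 7.33 (lowest, median and highest) on the 14 arrays above. The ranges overlapped, the 2 highest values were those of the arrays with the largest Gapdh difference, and the mean was lower on the arrays above (above minus below, -1.0). In the RefSeq annotation Kcna5, Kcna1 and Kcna6 are successive protein-coding genes of 1 chromosome, and their differences were -1.0, 1.22 and 0.54. Without DV706 and DV707 19 Kcn genes were higher and 1, Kcnq1, was lower, by 1 or more and with no overlap. The shares of all genes tested on the same arrays were 4.86% and 0.275%.

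The Kv3 genes encode fast voltage-dependent channels that shorten action potentials. Kcnc1 (Kv3.1) was at 3.99, 3.28, 3.85, 4.03 and 4.54 on DV706, DV707, DV709, CR715 and DR716, and at 5.93, 7.68 and 9.22 (lowest, median and highest) on the rest. It differed by 3.68 with no overlap, with 3 of 4 probe sets agreeing. Kcnc4 (Kv3.4) differed by 2.83 and Kcnc2 (Kv3.2) by 0.59, both with overlap. Kcnc2 ranged from 4.26 to 8.58 among the 5 low arrays, so that these arrays were not alike for it.

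The Kv7 family was divided. Kcnq3 (Kv7.3), a neuronal subunit of the M channel, was at 4.93, 4.34, 4.80, 4.46 and 4.51 on the low arrays and at 6.48, 7.97 and 8.84 (lowest, median and highest) on the others. It differed by 3.20 with no overlap and both probe sets agreeing. Kcnq5 (Kv7.5) differed by 0.80 with overlap. Kcnq1 (Kv7.1), the subunit of the heart and of epithelia, was at 8.35, 8.12, 6.85, 7.52 and 8.02 on DV706, DV707, DV709, CR715 and DR716. On the 14 others it was at 5.59, 6.36 and 6.73 (lowest, median and highest). All 5 low arrays were higher than the rest, by the least on DV709, and the difference (above minus below) was -1.48. The highest Kcnq1 values were on DV706, DV707 and DR716, the arrays with the largest Gapdh differences. The part of RNA quality in them was not tested. Kcnq1ot1, the noncoding transcript whose annotated span overlaps that of Kcnq1, differed by 0.28 with overlap, and 3 of its 6 probe sets agreed in direction.

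**Figure D2:**
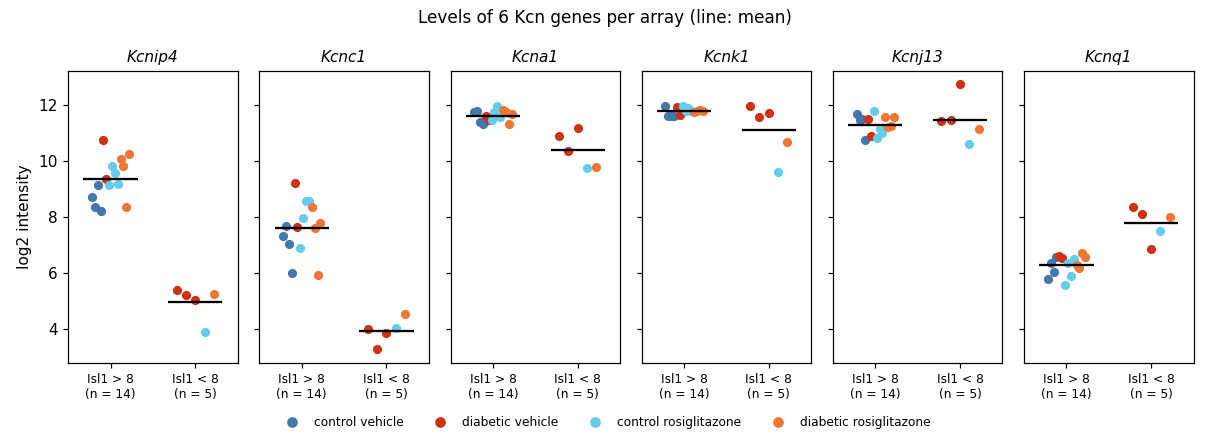
Log2 intensity of 6 Kcn genes on the 14 arrays with log2 Isl1 above 8 and the 5 below, 1 point per array coloured by title group, with a line at the mean. Kcnip4, Kcnc1 and Kcna1 are higher and Kcnq1 is lower on all arrays above, while Kcnk1 and Kcnj13 overlap.

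The EAG family holds further voltage-dependent channels. Kcnh1 (Kv10.1) differed by 2.23 but overlapped, since it was at 8.33 on DV707 and between 4.01 and 5.86 on the other low arrays. Kcnh2 (Kv11.1, the HERG channel) differed by 0.51 with overlap. Kcnh3 (Kv12.2) was between 6.87 and 7.14 on the low arrays and between 6.16 and 6.84 on the rest, a difference of -0.39 with no overlap and 4 of 4 probe sets agreeing. Of the silent subunits, which form no channel alone but join Kv2 subunits, Kcnf1 differed by 1.76 with no overlap, and Kcns1 by 0.91 and Kcns3 by 0.26 with overlap.

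Among the inward rectifiers, 1 of 6 genes was higher on all arrays above. This was Kcnj16 (Kir5.1), a subunit that assembles with other Kir channels. It was at 2.93, 3.01 and 3.19 on DV706, DV707 and DV709, 3.79 on CR715 and 4.82 on DR716, and at 5.54, 7.37 and 8.29 (lowest, median and highest) on the others. The difference was 3.73, with both probe sets agreeing. The satellite glia marker Fabp7, of a cell type that surrounds ganglion neurons, divided the arrays in the same way, with a difference of 6.48 and no overlap, while the other 3 tested markers of that list overlapped. The part of glial content in the Kcnj16 difference was not tested. Kcnj12 (Kir2.2) differed by 0.79 and Kcnj11 (Kir6.2) by -0.10, both with overlap. Kcnj8 (Kir6.1), the pore of vascular ATP-sensitive channels, was at 9.55, 10.32, 9.10, 9.76 and 9.47 on the low arrays, in the order used above, and at 8.20, 8.92 and 9.47 (lowest, median and highest) on the rest. It overlapped and differed by -0.79. Its sulfonylurea receptor partner Abcc9, from the partner list, differed by -1.12.

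Kcnj13 (Kir7.1), a weak inward rectifier known from epithelia, was at a mean of 11.35 over all arrays. It was at 11.43 on DV706, 11.46 on DV707, 12.75 on DV709, 10.61 on CR715 and 11.13 on DR716. The 14 others were at 10.75, 11.36 and 11.80 (lowest, median and highest). Both ends of its range came from low arrays, and the mean difference was -0.18. DV709 had the lowest level of the adipocyte marker list (-4.97) and CR715 the highest (2.59), and the part of fat in the Kcnj13 values was not tested. Kcnj14 (Kir2.4) was at 9.37 on CR715 and between 4.21 and 7.5 on all the rest, and its difference was 0.44.

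The two-pore leak channels overlapped in 6 of 7 genes. Kcnk1 (TWIK-1) was at 11.96, 11.59 and 11.73 on DV706, DV707 and DV709, 9.62 on CR715 and 10.68 on DR716, and at 11.60, 11.80 and 11.95 (lowest, median and highest) on the 14 others. CR715 and DR716 were the lowest arrays. Those 2 arrays also had the lowest levels of the myelinating Schwann cell list, -0.88 and -0.47 against -0.35 to 0.32 on the others, and the part of nerve content in the Kcnk1 values was not tested. Kcnk2 (TREK-1) was at 10.95, 10.34, 10.70, 9.29 and 9.87 on the low arrays and at 9.86, 10.71 and 11.04 (lowest, median and highest) on the rest, again lowest on CR715.

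Kcnk3 (TASK-1) was at 7.90, 8.30, 5.97, 10.59 and 8.96 on the low arrays and at 7.33, 8.07 and 8.75 on the rest. Its lowest and highest values over all arrays were thus both on low arrays, DV709 and CR715, and the difference was -0.29. The skeletal muscle list was at -2.58 on DV709, 2.86 on CR715 and 4.17 on DR720, where Kcnk3 was at 8.30. The adipocyte list was at -4.97 on DV709 and 2.59 on CR715, and the part of muscle and fat in the Kcnk3 values was not tested. Kcnk6 (TWIK-2) was at 9.97, 10.43, 9.05, 9.09 and 10.06 on the low arrays and at 7.61, 8.54 and 8.84 (lowest, median and highest) on the rest. It was the 1 two-pore gene with no overlap, and its difference was -1.26. Its highest values were on DV707, DR716 and DV706, the arrays with the largest Gapdh differences (4.38, 1.75 and 3.71). Without DV706 and DV707, the low arrays left (9.05, 9.09 and 10.06) were still above all the rest. The Kcnk6 means then differed by less than 1. The part of RNA quality in the Kcnk6 values was not tested. Kcnk5 (TASK-2) differed by -0.50, Kcnk13 (THIK-1) by 0.06 and Kcnk15 by -0.35, all with overlap.

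Calcium-activated and sodium-activated channels went both ways. Of the SK and IK genes, Kcnn2 (SK2) differed by 1.96 and was higher on all 14 arrays above, Kcnn3 (SK3) differed by -0.74 and was lower on all of them, and Kcnn1 (SK1, 0.44) and Kcnn4 (IK, -0.24) overlapped. Of the large-conductance Slo family, Kcnt1 (Slack) differed by 1.47, Kcnu1 by 0.56, Kcnt2 (Slick) by -0.08 and Kcnma1 (the BK pore) by -0.38, all with overlap. Of the BK beta subunits, Kcnmb2 differed by 1.38 with no overlap, and Kcnmb1 by 2.38 and Kcnmb4 by 0.39 with overlap. The annotated span of Kcnmb1 overlaps that of Kcnip1, so its values are less certain. The KCNE subunits Kcne3 and Kcne4 differed by -0.79 and -0.46 with overlap. Kcne3 was at 8.72, 9.98, 7.60, 9.82 and 10.81 on the low arrays and at 7.23, 8.50 and 10.45 (lowest, median and highest) on the rest.

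The array that held a gene's extreme value was also uneven. DV708, which had the highest Isl1 level (11.35), gave the highest value of 22 of the 52 Kcn genes (42.3%), against 9.04% of the genes tested. CR715 gave the lowest value of 19 (36.5%), against 12.4% of the genes tested, and DV709 that of 12 (23.1%), against 8.15%. DV706 and DV707 gave the highest value of 4 and 6 Kcn genes (7.69% and 11.5%), against 15.1% and 17.5% of the genes tested.

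Sequences before the transcription start were compared because 15 Kcn genes divided the arrays together. The RefSeq promoter table (GRCm38.p6) held 40 of the 52 genes, and the 250 bases before each start were searched on both strands for GGGCGG, the GC box bound by Sp1-type factors, and TATAAA, the TATA box. A GC box was found in 22 of 40 genes (55%), against 35.4% of 27025 genes in the table, in 7 of the 11 matched genes that were higher on all arrays above (63.6%) and in 15 of the 29 others (51.7%). A TATA box was found in 2 of 40 (5%), against 14.3% of all genes. A gene was counted if any of its listed starts had a match, so genes with more starts had more chances. The 27025 genes were not limited to those that were measured or kept, so the shares are not of like sets. A match is a string of letters and not a site. Of the 12 genes with 1 listed start and a window outside the gene's own span, 6 are printed 5' to 3' on the gene strand, with GC boxes (CCGCCC on the printed strand) and TATA boxes in capitals. Kcna4 (chr2:107290339-107290588, plus strand), Kcnf1 (chr12:17176889-17177138, minus strand) and Kcnd3 (chr3:105451640-105451889, plus strand) are the 3 of these that were higher on all arrays above.
Kcna4: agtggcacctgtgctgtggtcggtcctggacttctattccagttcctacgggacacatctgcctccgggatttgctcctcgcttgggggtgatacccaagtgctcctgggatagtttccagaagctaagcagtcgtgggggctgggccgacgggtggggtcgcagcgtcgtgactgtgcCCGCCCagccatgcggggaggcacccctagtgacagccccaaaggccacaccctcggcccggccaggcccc
Kcnf1: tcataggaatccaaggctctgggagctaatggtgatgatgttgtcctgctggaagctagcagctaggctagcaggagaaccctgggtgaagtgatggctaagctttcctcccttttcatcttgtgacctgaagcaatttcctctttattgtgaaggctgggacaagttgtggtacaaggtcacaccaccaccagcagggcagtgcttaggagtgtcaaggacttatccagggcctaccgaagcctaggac
Kcnd3: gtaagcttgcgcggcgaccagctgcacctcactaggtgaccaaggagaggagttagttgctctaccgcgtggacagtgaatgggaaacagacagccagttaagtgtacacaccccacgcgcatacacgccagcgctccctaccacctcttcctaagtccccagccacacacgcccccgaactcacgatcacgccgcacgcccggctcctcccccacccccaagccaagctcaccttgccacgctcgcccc
Kcnj13 (chr1:87394730-87394979, minus strand) is shown for its high level and its TATA box, which starts 29 bases before the start, and Kcna5 (chr6:126535556-126535805, minus strand) and Kcnj8 (chr6:142571615-142571864, minus strand) as the lowest by difference.
Kcnj13: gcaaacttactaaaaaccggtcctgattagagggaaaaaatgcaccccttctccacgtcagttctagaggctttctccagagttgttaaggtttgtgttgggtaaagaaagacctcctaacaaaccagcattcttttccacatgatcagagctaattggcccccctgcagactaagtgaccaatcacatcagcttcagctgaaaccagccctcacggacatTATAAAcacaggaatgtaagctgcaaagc
Kcna5: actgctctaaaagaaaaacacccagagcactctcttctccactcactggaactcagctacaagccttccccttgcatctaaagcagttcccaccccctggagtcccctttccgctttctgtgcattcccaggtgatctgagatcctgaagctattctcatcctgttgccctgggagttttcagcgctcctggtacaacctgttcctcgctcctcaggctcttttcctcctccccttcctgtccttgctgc
Kcnj8: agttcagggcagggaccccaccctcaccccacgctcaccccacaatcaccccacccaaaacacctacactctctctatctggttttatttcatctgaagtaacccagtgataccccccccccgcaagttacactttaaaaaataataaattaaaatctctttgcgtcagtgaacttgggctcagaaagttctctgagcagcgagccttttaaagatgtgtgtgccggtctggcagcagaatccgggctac
The first 3 windows share no motif that was searched, since Kcna4 has 1 GC box and Kcnf1 and Kcnd3 have 0. The windows were 65.2%, 51.2% and 62.8% G and C for Kcna4, Kcnf1 and Kcnd3, and 45.2%, 53.2% and 49.2% for Kcnj13, Kcna5 and Kcnj8.

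Between the title groups no Kcn gene passed the threshold. With limma and Benjamini-Hochberg adjustment over 13460 genes, 0 of 52 were at an adjusted p under 0.05 in each of the 5 comparisons, and 0 of all genes tested were (0%). At an unadjusted p under 0.05, limma gave 3 of 52 (5.77%) for diabetes under vehicle, all higher, against 18.1% of all genes in either direction and 10.7% higher. The members' share was below that of all genes. It gave 0 of 52 for the rosiglitazone effect in diabetic mice, against 9.7% of all genes, and 0 of 52 for that in control mice, against 2.83%. For diabetes among mice given rosiglitazone it gave 0 of 52, against 1.29%, and for the interaction, which asks whether the rosiglitazone effect differs by diabetes, 0 of 52, against 4.77%. The median log2 differences of the 52 genes in these 5 comparisons were -0.01, 0.22, 0.05, 0.05 and 0.09, beside 0.03, -0.02, 0.00, 0.01 and -0.02 over all genes. The comparisons share arrays, so their values are not independent of each other.

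Kcnn4 (KCa3.1, the intermediate-conductance channel of blood cells, endothelium and other non-excitable cells) had the smallest p of the Kcn genes under diabetes. It was at 9.12, 9.68, 8.77 and 8.50 on CV702, CV703, CV704 and CV705. It was at 10.27, 9.23, 10.21, 10.24 and 9.95 on DV706, DV707, DV708, DV709 and DV710. All diabetic vehicle arrays but DV707 were above all control vehicle arrays, and the means were 9.98 ± 0.44 (SD, n = 5) and 9.02 ± 0.51 (SD, n = 4). The difference was 0.96 (SE 0.23), with a limma adjusted p of 0.238, rank 17 of 13460 by p, and 2 of 2 probe sets agreed in direction. It was 1.06 (SE 0.25) on the arrays with log2 Isl1 above 8 and 1.11 without DV706 and DV707, the 2 arrays with the largest Gapdh difference.

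Under rosiglitazone Kcnn4 was at 9.24, 9.42, 9.0, 9.24 and 8.91 on CR711 to CR715 and at 9.49, 9.62, 9.51, 9.38 and 9.76 on DR716 to DR720. The ranges overlapped by 1 array on each side, and diabetic minus control was 0.39 (SE 0.21; limma adjusted p = 1). Rosiglitazone minus vehicle was -0.43 (SE 0.21; limma adjusted p = 0.498) in diabetic mice, where 1 of 2 probe sets agreed, and 0.15 (SE 0.23; limma adjusted p = 1) in control mice. The interaction for Kcnn4 was -0.57 (95% interval -1.23 to 0.09; limma adjusted p = 0.748).

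Kcnq1 and Kcnj8 had the next smallest p under diabetes, and both lay higher on low-Isl1 arrays as described above. Kcnq1 was at 5.80, 6.37, 6.05 and 6.58 on the control vehicle arrays and at 8.35, 8.12, 6.59, 6.85 and 6.53 on DV706 to DV710. The diabetic arrays that stood out were DV706 and DV707, while DV708 and DV710 were at the level of the highest control array. The difference was 1.09 (SE 0.46; limma adjusted p = 0.250) and became 0.36 (SE 0.27) on the arrays with Isl1 above 8 and 0.46 without DV706 and DV707. Kcnj8 was at 8.38, 8.98, 8.59 and 8.49 on CV702 to CV705 and at 9.55, 10.32, 8.56, 9.10 and 9.36 on DV706 to DV710. Only DV708 was within the control range. The difference was 0.77 (SE 0.34; limma adjusted p = 0.256), 0.35 (SE 0.36) with Isl1 above 8 and 0.40 without DV706 and DV707. Endothelial markers lay the same way under diabetes, with a median difference of 0.62 and 3 of 7 higher at an unadjusted limma p under 0.05 (adjusted, 0 of 7), against 10.7% of all genes. Cdh5 of that list lay the other way, at -0.16. The centred level of the endothelial list was -0.58 to -0.17 in control vehicle and -0.38 to 1.25 in diabetic vehicle mice. It was highest on DV706 (1.25) and DV707 (1.05), the 2 arrays with the largest Gapdh difference. On DV708, DV709 and DV710 it was -0.38, 0.31 and 0.24. Of 7 smooth muscle and pericyte markers 0 were higher and 2 were lower at that p, Tagln (-0.50, SE 0.17) and Pdgfrb (-0.63, SE 0.19), with a list median of 0.25 and a centred level of -0.92 to 0.01 in control and -0.63 to 0.59 in diabetic vehicle mice. The part of either list in the Kcnj8 and Kcnn4 values was not tested, nor was that of RNA quality in the lists.

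**Figure D3:**
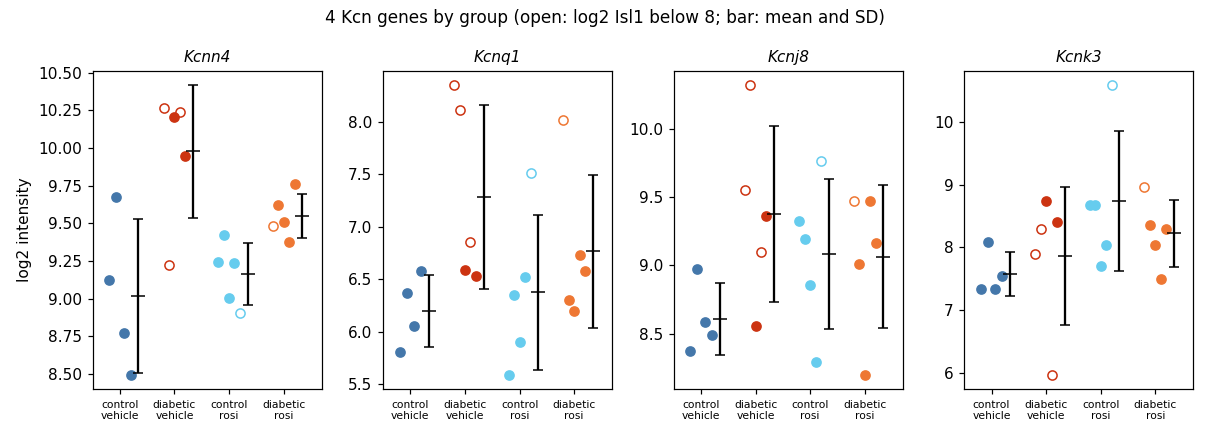
Log2 intensity of Kcnn4, Kcnq1, Kcnj8 and Kcnk3 in the 4 groups, 1 point per array, with the mean and SD as bars and open points for arrays with log2 Isl1 below 8. For Kcnn4, 4 of 5 diabetic vehicle arrays are above all control vehicle arrays, and the highest Kcnq1 values are open points.

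Rosiglitazone in control mice gave its smallest p for Kcnk3, the acid-sensitive leak channel TASK-1. It was at 7.34, 8.09, 7.33 and 7.54 on the control vehicle arrays and at 8.67, 8.68, 7.70, 8.05 and 10.59 on CR711 to CR715. The ranges overlapped, and CR715, a low-Isl1 array with high muscle and fat markers, was highest. The difference was 1.16 (95% interval -0.00 to 2.32; limma adjusted p = 1), and 0.70 (SE 0.26) on the arrays with Isl1 above 8. Kcnj14 was at 5.78, 6.79, 5.94 and 7.05 on the control vehicle and at 6.87, 7.5, 6.51, 6.81 and 9.37 on the control rosiglitazone arrays. Again CR715 was highest, and the difference was 1.02 (SE 0.53; limma adjusted p = 1) with it and 0.53 (SE 0.42) without it. Kcns3, a silent subunit of Kv2 channels, was at 8.62, 8.83, 8.35 and 8.20 with vehicle and at 8.89, 9.26, 8.81, 8.82 and 8.85 with rosiglitazone in control mice. The ranges overlapped only through CV703, and the difference was 0.43 (SE 0.23; limma adjusted p = 1).

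In diabetic mice, rosiglitazone gave its next smallest p after Kcnn4 for Kcnk15, a two-pore subunit known to form no current alone. It was at 9.88, 10.18, 10.14, 11.20 and 9.51 on DV706 to DV710 and at 9.75, 9.84, 9.46, 9.47 and 9.87 on DR716 to DR720. DV709 stood above the rest, and the difference was -0.50 (SE 0.26; limma adjusted p = 0.498), and -0.16 (SE 0.30) on the arrays with Isl1 above 8. Kcnj14 was at 5.14, 4.21, 6.49, 5.30 and 6.51 on DV706 to DV710 and at 6.60, 6.58, 6.24, 6.44 and 6.33 on DR716 to DR720. The low diabetic vehicle values were those of the 3 low-Isl1 arrays. The difference was 0.91 (SE 0.50; limma adjusted p = 0.504) over all arrays and -0.11 (SE 0.34) on those with Isl1 above 8.

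Diabetes under rosiglitazone gave its smallest p for Kcnj14, at -0.97 (SE 0.50; limma adjusted p = 1) over all arrays and -0.48 (SE 0.40) without CR715. Kcne3, a subunit that modifies Kv7.1 and other channels, was at 8.52, 8.05, 7.23, 7.99 and 9.82 on CR711 to CR715 and at 10.81, 8.61, 8.24, 10.45 and 8.29 on DR716 to DR720. The ranges overlapped, and the difference was 0.96 (SE 0.58; limma adjusted p = 1). In the interaction Kcnj8 (-0.79, SE 0.46) and Kcnh3 (-0.33, SE 0.22) followed Kcnn4, each with a limma adjusted p of 0.748. Kcnh3 was at 6.63, 6.65, 6.46 and 6.72 in control vehicle mice and at 7.09, 7.14, 6.84, 6.87 and 6.69 in diabetic vehicle mice. With rosiglitazone it was at 6.75, 6.71, 6.63, 6.51 and 7.10 in control and at 7.05, 6.77, 6.80, 6.82 and 6.16 in diabetic mice. Kcnj8 was at 9.33, 9.19, 8.85, 8.30 and 9.76 on CR711 to CR715 and at 9.47, 9.01, 8.20, 9.47 and 9.17 on DR716 to DR720, with full overlap of both rosiglitazone groups.

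All 15 genes that were higher on all arrays above had their lowest group mean in diabetic vehicle mice, where 3 of 5 arrays were low in Isl1. The 4 genes that were lower on all arrays above, Kcnq1, Kcnk6, Kcnn3 and Kcnh3, had their highest group mean there. Both follow largely from how these genes were chosen, since that group held the most low arrays, and are no separate result. Kcnip4 was at 8.61 ± 0.42 (SD, n = 4) in control vehicle, 7.16 ± 2.69 (SD, n = 5) in diabetic vehicle, 8.33 ± 2.49 (SD, n = 5) in control rosiglitazone and 8.76 ± 2.10 (SD, n = 5) in diabetic rosiglitazone mice. The spread within the 3 groups that hold low arrays was several times that of the control vehicle group. Diabetic minus control vehicle was -1.45 (SE 1.38; limma adjusted p = 0.548) over all arrays and 1.44 (SE 0.50; limma adjusted p = 0.419) on the arrays with Isl1 above 8, so the sign turned with the arrays used. The same turn of sign was seen for Kcnip2 (-1.10 and 1.19), Kcnc1 (-1.41 and 1.44) and Kcnj16 (-2.24 and 0.53).

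With only the 14 arrays above 8, which leaves 2 diabetic vehicle, 4 control vehicle, 4 control rosiglitazone and 4 diabetic rosiglitazone arrays, more Kcn genes lay higher in diabetic vehicle mice. At an unadjusted limma p under 0.05, 14 of 52 (26.9%) were higher, against 6.68% of all genes, 0 were lower, and 0 passed adjustment. The median difference of the 52 genes was 0.53, beside 0.01 over all genes. The largest differences among these 14 were for Kcnmb1 (1.52, SE 0.48), Kcnh1 (1.51, SE 0.52), Kcnip4, Kcnc4 (1.42, SE 0.62) and Kcna4 (1.39, SE 0.49). Of the 2 diabetic arrays left, DV708 had the highest level of sensory neuron markers other than Isl1 of all arrays (2.23) and DV710 was at 1.33, beside 0.30 to 1.21 in control vehicle mice. The part of this level in the count was not tested. Rosiglitazone in control mice then gave 7 of 52 higher (13.5%), against 4.58% of all genes, with a median of 0.38. The interaction gave 4 of 52 lower (7.69%), against 4.09%, with a median of -0.50, for Kcnn4, Kcnk3, Kcnc1 and Kcna4. None of these genes passed adjustment with limma. The level of the sensory neuron list, here with Isl1, was 1.14, 1.86, 1.47 and 1.18 on CR711 to CR714. It was 0.38, 1.19, 1.21 and 0.38 on CV702 to CV705. The interaction rests on the same arrays and on DV708 and DV710, beside the diabetic rosiglitazone arrays. The part of these levels in either count was not tested.

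**Figure D4:**
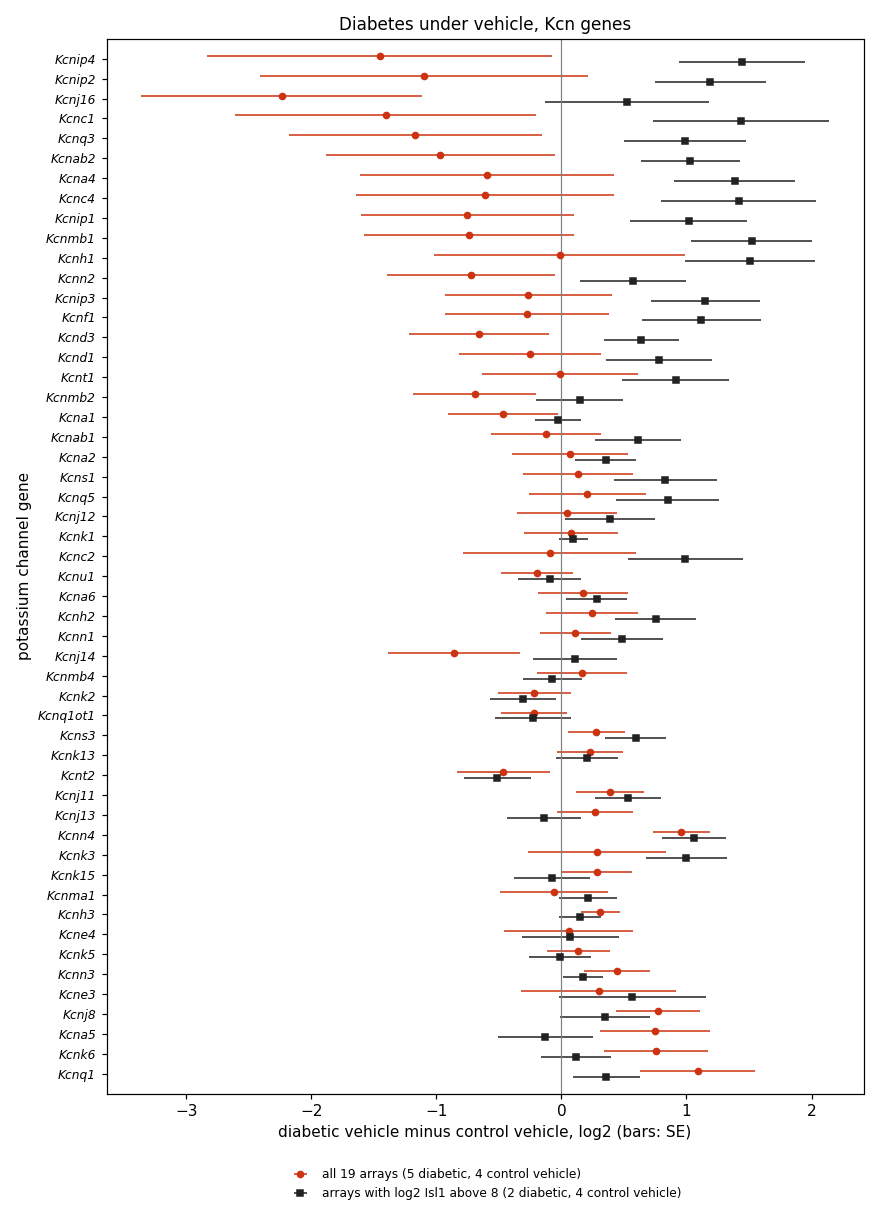
Log2 difference between diabetic and control vehicle mice for the 52 Kcn genes, from the fit on all 19 arrays (circles) and on the arrays with log2 Isl1 above 8 (squares), with SE bars, ordered as in the heat map. In the upper rows the squares lie right of 0 and most circles left of it, as for Kcnip4 at 1.44 and -1.45, while Kcnn4 is near 1 in both.

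Genes of proteins that bind Kv channels or hold them in place were also read across the arrays. Of 27 listed channel partners 19 were tested, and 8 were higher on all 14 arrays above and 0 lower, against 4.39% and 1.56% of all genes tested. Among the 8, Dpp6, Dpp10 and Cntn2 had means of 3.91, 4.06 and 4.95 on the low arrays. These lie below the level that a gene's mean had to pass to be tested. Those genes were tested only through the arrays where they were high, so the count depends in part on that limit. The median difference of the 19 partners was 0.59, beside -0.05 over all genes. Cntn2, the adhesion molecule that anchors Kv1 channels beside the node, was at 4.38, 6.89, 4.00, 4.87 and 4.62 on DV706, DV707, DV709, CR715 and DR716 and at 8.47 to 10.60 on the rest. Its binding partner Cntnap2 (Caspr2) was at 7.59, 5.16, 7.09, 5.27 and 6.13 and at 8.89 to 11.05. Both were higher on all 14 arrays above, by 4.62 and 3.87. The scaffold gene Dlg2 (PSD-93) differed by 3.0 and Adam23, a receptor of the LGI proteins, by 1.70, both with no overlap, while Adam22, Lgi1 to Lgi4 and the scaffold genes Dlg1 and Dlg4 overlapped.

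Between the groups, at an unadjusted limma p under 0.05, 1 of 19 partners was higher for diabetes under vehicle, 1 was lower for rosiglitazone in diabetic mice and 0 were called in the other 3 comparisons. In the first comparison 10.7% of all genes were higher, and in the second 9.7% were called in either direction. None of the partners passed adjustment. The first was Nedd4l, a ubiquitin ligase that removes Kv7 and sodium channels from the membrane (0.49, SE 0.18; limma adjusted p = 0.238), and the second Dlg1 (-0.40, SE 0.15; limma adjusted p = 0.498).

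Genes of the sodium pump, which restores the potassium gradient that the channels spend, and of cotransporters were read in the same way. Of 18 listed genes 14 were tested, and 1 was higher on all 14 arrays above, against 4.39% of all genes, the sodium pump beta subunit Atp1b1, by 1.40. The pump regulator Fxyd7 differed by 1.47, Atp1b2 by 1.26 and Fxyd3 by 0.93, all with overlap. Rosiglitazone in diabetic mice gave 2 of 14 higher and 1 lower at an unadjusted limma p under 0.05, against 9.7% of all genes in either direction, and none after adjustment. The 2 were Atp1b1 (0.98, SE 0.41) and Fxyd5 (0.37, SE 0.17), and the lower gene was Slc12a5, the neuronal potassium-chloride cotransporter KCC2 (-1.32, SE 0.53), each with a limma adjusted p of 0.498. Slc12a5 was at 8.05, 8.29, 9.52, 6.56 and 6.99 on DV706 to DV710 and at 7.43, 6.53, 6.58, 6.27 and 5.98 on DR716 to DR720, so the ranges overlapped. It was also the 1 pump list gene called for diabetes under rosiglitazone (-1.40, SE 0.53; limma adjusted p = 1), against 1.29% of all genes, and for the interaction (-2.30, SE 0.77; limma adjusted p = 0.748), against 4.77%.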

How the data were processed

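Total RNA was extracted on spin columns and amplified with biotin label, per the labels' protocols. The values are the authors' deposited intensity for each probe set, linear and between 3.76 and 30602, made by RMA per the submitters' processing notes. The array medians ran from 83.3 to 101.7. Their log2 was taken with no offset. Of 45101 probe sets, 64 controls were left out, 34945 had 1 symbol in the platform annotation, 932 several and 9160 none listed. Gene symbols follow that annotation, and all 83 Kcn gene identifiers were in the RefSeq table. 1 gene with such a symbol is not reported here.

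Group means were fitted in limma (version 3.58.1, under R 4.3.3; eBayes, Benjamini-Hochberg, 0.05) on the 13460 genes above the 40th percentile, a log2 of 5.54. The spread is that between mice. The script was tested on simulated data. Members and lists were chosen with earlier results of these data known. Values per array are given for the 3 Kcn genes with the smallest p in each comparison, the 6 with the highest mean and the 5 with the largest Isl1 difference each way. Intensities of different probe sets were not compared.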

Additional observations from a re-analysis of the deposited data

Results flagged for a closer look

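Within the 4 title groups, 14 of 88 gene and group pairs held an array far from the others, judged by the gap to the nearest array as a share of the group's range. Chance marks about 1 in 20 pairs of genes and groups taken without regard to their values. That rate is no measure here, since 10 of the 22 genes were chosen for their Isl1 difference, and CR715 and DR716 are each the 1 low-Isl1 array of their group. In 8 of the 14 the array was CR715, and in 3 it was DR716. On CR715 the low values were Kcna1 9.74, Kcna2 8.59, Kcnd3 9.85, Kcnip2 4.25, Kcnip4 3.89, Kcnj16 3.79, Kcnk1 9.62 and Kcnq3 4.46. On DR716 Kcna1 was low at 9.80 and Kcnk1 at 10.68, and Kcnk6 was high at 10.06. The remaining pairs were Kcna5 at 6.14 and Kcnk1 at 11.95 on CV702, and Kcns3 at 9.26 on CR712.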

How the results depend on the processing

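No paired analysis was possible because no replicate number is shared between groups. No Kcn gene passed the adjusted threshold with all arrays, and the counts here are at an unadjusted limma p under 0.05. The shares of all genes beside them are given above for all arrays and for the counts on the arrays above 8. For the other settings of the group comparisons no share of all genes was taken. Those counts therefore cannot be judged against a background. For diabetes under vehicle the count of 3 became 14 (median 0.53) with only arrays above Isl1 of 8 and 19 (median 0.49) with Isl1 class as a term, and 1 (without CV702) to 7 (without DV708) when 1 array was left out. For rosiglitazone in diabetic mice the count of 0 became 3 with the Isl1 term and 1 each with the Gapdh term, the mean of probe sets and without DV706 and DV707, and 0 to 4 (4 without DV708) with 1 array left out. Kcnj14 turned to -0.11 on arrays above 8. For rosiglitazone in control mice it became 7 (arrays above 8), 5 (Isl1 term) and 1 each with the Gapdh term, quantile normalization and no filter, and 0 to 2 (2 without CV703) with 1 left out. For diabetes under rosiglitazone it became 1 (Gapdh term), 2 (without DV706 and DV707) and 0 to 2 (2 without CR715). For the interaction it became 4 with a median of -0.50 (arrays above 8), 4 with -0.46 (Isl1 term), 1 (Gapdh term), 1 (without DV706 and DV707) and 0 to 1 (1 without CV703). For the Isl1 division, 15 genes were higher and 2 lower by 1 or more, against 3.87% and 0.305% of all genes tested. These counts became 0 and 0 with the limit at 6, against 0.349% and 0.0966%. With the limit at 10 they became 1 and 0, against 0.371% and 0.0669%, so the shares of all genes fell as well. Among the 35 Kcn genes with a mean above 7 they were 9 and 1. Without DV706 and DV707, a setting chosen after seeing the data, 1 gene was lower, against 0.275%. With 1 array left out the division gave 15 to 17 higher and 2 lower, against 3.87% to 4.93% and 0.26% to 2.13%. The causes were not tested.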

Other observations

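The 31 Kcn genes with a mean at or below 6 included 2 that were higher on all 14 arrays with log2 Isl1 above 8. Kcnj3 (Kir3.1, a G protein-gated inward rectifier of neurons and heart) was at 2.57, 3.34, 2.32, 2.97 and 2.91 on DV706, DV707, DV709, CR715 and DR716 and between 5.0 and 7.48 on the others, a difference of 3.43. Kcnv1, a silent subunit, differed by 1.79. Another 3, Kcng1 (-0.51), Kcnk16 (-0.43) and Kcnv2 (-0.38), were lower on all 14 arrays above. Their means over all arrays were only 4.35, 4.33 and 2.76, below the level needed for testing, so such small differences are uncertain. No share of all genes at or below 6 was taken beside the counts of 2 and 3, so neither can be judged against a background. Kcnj15 (Kir4.2) was at 8.30 on CR715 with a mean of 5.15 over all arrays. These genes were named after their values were seen.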
